A study of Mus musculus with 6 samples.

Results

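The secretory products of prostate luminal cells are represented here by 8 genes, Tgm4, Pbsn, Msmb, Defb50, Pate4, 9530003J23Rik, Lyz2 and Azgp1, of the 55076 rows in each deposited table. They were picked by symbol as secreted products of the mouse prostate with their levels in OEx and Ctrl mice already known, so their OEx and Ctrl values are a description and carry no test. RNA-seq was run on anterior prostates (AP) of male mice at 20 weeks of age, with 3 OEx mice and 3 Ctrl mice and 1 library for each. OEx mice carry Pbsn-Cre and 1 copy of a Cre-inducible allele of the Notch1 intracellular domain (N1ICD) at Rosa26, so that N1ICD is made in the prostatic epithelium; the sample labels name this genotype N1ICD-Oex. Ctrl mice have the same Rosa26 N1ICD allele without Cre according to the methods, whereas their labels read Wild type. The Cre is driven by the promoter of probasin, which is itself one of the 8 genes. The methods describe cleaning away of prostatic secretions under RNA isolation for quantitative PCR, and do not mention it for RNA-seq. The RNA came from whole glands. In such bulk RNA, fewer cells of a type and less RNA per cell cannot be told apart.

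Luminal cells line the prostatic ducts and release the fluid that makes up part of semen. Their products include an enzyme that cross-links seminal proteins into the copulatory plug, small carrier proteins, and antibacterial peptides and enzymes, and many of these genes depend on androgen. The lobes of the mouse prostate differ in which of these products they make most.

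Values are FPKM, fragments per kilobase of gene scaled to a library size, which can be compared between genes because they are per length. Whole reads could be recovered from them, and totalled 14762182 to 18650962 per mouse. The library sizes that the FPKM imply do not follow these totals. For OEx replicates 1, 2 and 3 the implied size per recovered read was 1.34, 1.35 and 1.22. For Ctrl replicates 1, 2 and 3 it was 0.726, 0.730 and 0.815. A gene with the same share of reads in both groups is therefore listed at a lower FPKM in the OEx group. The source of this difference was not tested. A floor of 3 reads and any count given below cover counting error only. Replicates 1 and 2 of each group lay far closer together than either lay to replicate 3. Their recovered reads gave a chi-square of 3.67 per gene in OEx mice and 2.93 in Ctrl mice, where counting alone gives about 1, against 50.4 to 86.7 for pairs with replicate 3. The labels number the samples without naming animals, so they were kept as separate mice, and p-values measure only the spread between these samples, which may be partly technical and is mostly that of replicate 3. Notch1 was at 41.9, 47.6 and 78.9 FPKM in OEx mice and 5.18, 5.55 and 3.34 FPKM in Ctrl mice, in the direction the labels give.

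All 8 genes passed the filter of a mean of 1 FPKM. Of these, 4 were lower in OEx mice by an FDR under 0.05 and a fold change over 2 (Tgm4, Pbsn, 9530003J23Rik and Azgp1), 2 were higher (Defb50 and Msmb), and Lyz2 and Pate4 were not called. Of all 12833 rows tested, 28.6% were called, 15.7% lower and 12.9% higher. The values of OEx and Ctrl mice did not overlap for 7 of the 8 genes, Lyz2 being the exception, where 38.9% of all rows lay lower in every OEx mouse and 33.4% lay higher. The log2 fold changes of the 8 genes ran from -9.33 to 4.60 with a median of -2.30, against -0.078 over all rows. Without Ctrl replicate 3 the median was -1.14, with Pate4 at -0.35 in place of -3.59. Since the genes were chosen with this contrast in view, nothing further is read from these counts.

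**Figure D1:**
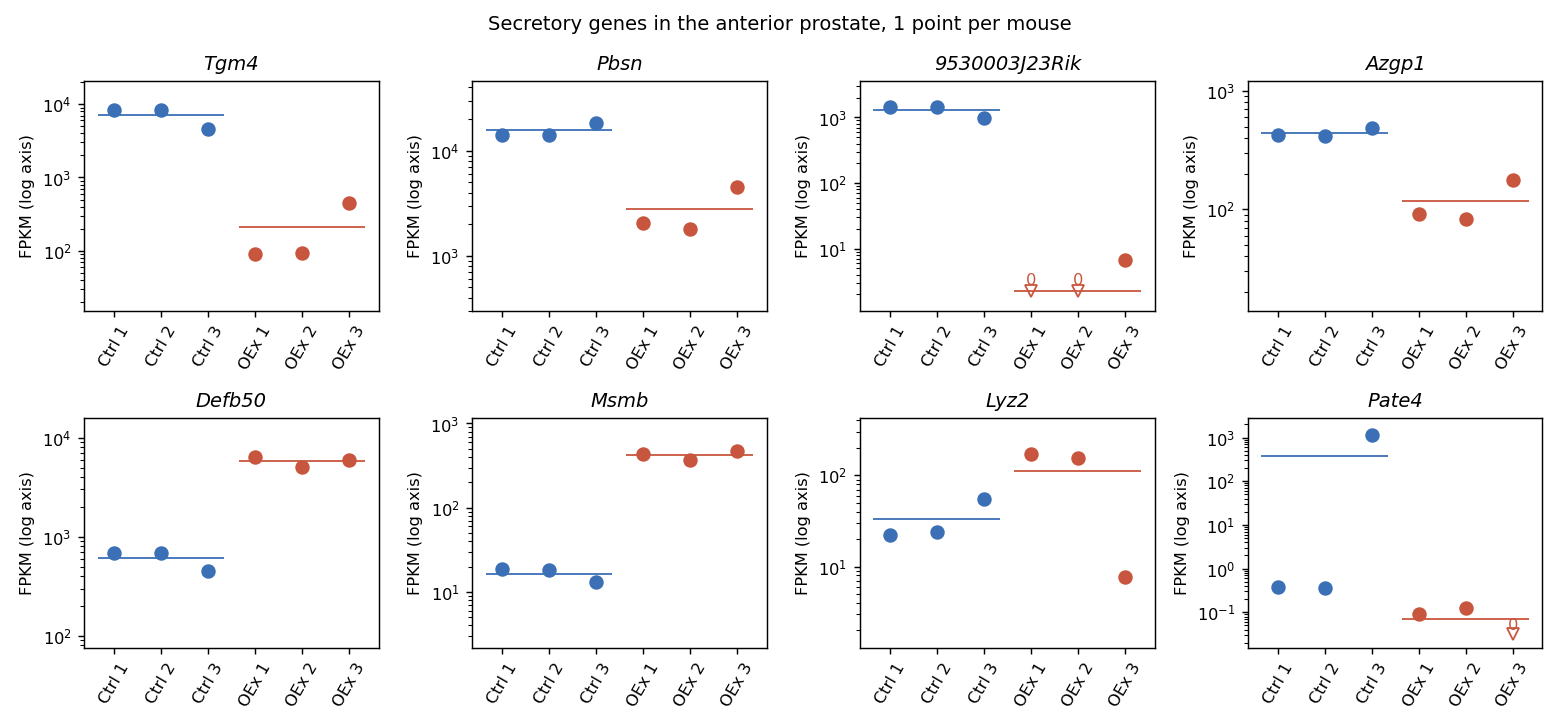
FPKM of the 8 secretory genes in each of the 3 Ctrl mice (blue) and 3 OEx mice (red), on log axes, with the group mean as a line and open triangles for a value of 0. Tgm4, Pbsn, 9530003J23Rik and Azgp1 lie lower in every OEx mouse, Defb50 and Msmb lie higher in every OEx mouse, Lyz2 splits the OEx mice, and Pate4 is high in Ctrl 3 alone.

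Tgm4 encodes prostate transglutaminase, the enzyme that cross-links seminal vesicle proteins into the copulatory plug, and lies on chromosome 9 from 123034726 to 123067561 on the plus strand (GRCm38). It was at 8207, 8280 and 4610.0 FPKM in Ctrl mice and at 90.7, 92.3 and 445 FPKM in OEx mice. Every OEx mouse lay below every Ctrl mouse, and OEx replicate 3 was 4.86 times the mean of the other OEx mice. The group means were 7032 ± 2098 FPKM (SD, n = 3) in Ctrl and 209 ± 204 FPKM (SD, n = 3) in OEx mice, a 33.6-fold difference of means for a fitted log2 fold change of -5.44 (standard error 0.637). Among all rows of a mouse, Tgm4 ranked 5, 5 and 10 by FPKM in Ctrl mice and 332, 318 and 64 in OEx mice. Of its exon bases, 18.2% are shared with Zdhhc3 on the opposite strand, a gene at 6.47 to 14.5 FPKM.

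Probasin (Pbsn) is a secreted lipocalin and a classical androgen-dependent product of the rodent prostate, encoded on chromosome X from 77837901 to 77853623 on the minus strand. Ctrl mice had 14220.3, 14235.5 and 18407 FPKM, and OEx mice had 2064, 1795 and 4497 FPKM. The groups did not overlap, and OEx replicate 3 again lay nearest to the Ctrl mice, at 2.33 times the mean of the other OEx mice. The means of 15621 ± 2413 FPKM (SD, n = 3) in Ctrl and 2785 ± 1489 FPKM (SD, n = 3) in OEx mice differ 5.61-fold, for a fitted log2 fold change of -2.60 (standard error 0.357). Despite this, Pbsn ranked 4 to 8 among all rows in OEx mice, and 2 or 3 in Ctrl mice.

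9530003J23Rik, listed by RefSeq under the older name Lyzf1 and so of the lysozyme family, lies on chromosome 10 from 117232237 to 117238703 on the minus strand. It was at 1439.8, 1426 and 998 FPKM in Ctrl mice. In OEx mice it was listed at 0, 0 and 6.73 FPKM, which is 0, 0 and 205 recovered reads against 25583 to 31138 reads in Ctrl mice. A count of 3 reads would have been 0.0891 and 0.0778 FPKM in OEx replicates 1 and 2. The log2 fold change was -9.33 (standard error 0.784) with a pseudocount of 1 FPKM and -11.60 with 0.1 FPKM, so its size is set largely by the pseudocount. The transcript was thus below detection in OEx replicates 1 and 2 and present in OEx replicate 3.

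Azgp1 encodes zinc-alpha-2-glycoprotein, a secreted protein with the fold of MHC class I that also comes from fat and liver. The gene lies on chromosome 5 from 137981520 to 137990233 on the plus strand. It was at 421, 418 and 484 FPKM in Ctrl mice and at 90.4, 83.3 and 177 FPKM in OEx mice. This was the smallest of the 4 decreases, with means of 441 ± 37.5 FPKM (SD, n = 3) in Ctrl and 117 ± 52.2 FPKM (SD, n = 3) in OEx mice for a fitted log2 fold change of -1.99 (standard error 0.283). Adipocyte markers were low throughout, with 5 listed genes summing to 2.24 to 14.3 FPKM in Ctrl and 0.428 to 0.722 FPKM in OEx mice, Adipoq at most at 0.334 FPKM and Lep at 0 in every mouse.

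Defb50, a beta-defensin of the family of small antimicrobial peptides, went the other way. It lies on chromosome 8 from 21823539 to 21831296 on the plus strand. Ctrl mice had 688, 680.0 and 456 FPKM, and OEx mice had 6367, 5013 and 5919 FPKM. Each OEx mouse exceeded each Ctrl mouse, and the highest OEx value was 1.27 times the lowest. The means of 5766 ± 690 FPKM (SD, n = 3) in OEx and 608 ± 132 FPKM (SD, n = 3) in Ctrl mice differ 9.48-fold, for a fitted log2 fold change of 3.26 (standard error 0.197). Defb50 ranked 1, 2 and 3 among all rows of the OEx mice, where it stood above Pbsn in each, and ranked 82, 80 and 146 in Ctrl mice.

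Msmb encodes beta-microseminoprotein, an abundant small protein of seminal plasma, and lies on chromosome 14 from 32142023 to 32158370 on the plus strand. It was at 18.5, 18.0 and 13.1 FPKM in Ctrl mice and at 429, 367 and 468 FPKM in OEx mice. As with Defb50, the OEx mice were close to each other. The OEx mean was 421 ± 50.8 FPKM (SD, n = 3) and the Ctrl mean 16.5 ± 2.98 FPKM (SD, n = 3), a 25.5-fold difference for a fitted log2 fold change of 4.60 (standard error 0.158), the largest increase of the 8 genes.

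The order of these products within the gland differed between the groups. In each Ctrl mouse Pbsn was first, Tgm4 second and Msmb below Azgp1. In each OEx mouse Defb50 was first, Pbsn second and Msmb next. Several neighbours further down had overlapping ranges over the mice of a group. In Ctrl mice these were Defb50 and Azgp1, of which Azgp1 was the higher in replicate 3 only, and Pate4 overlapped every gene below Tgm4. In OEx mice the range of Tgm4 overlapped those of Msmb, Lyz2 and Azgp1, Lyz2 also overlapped Azgp1, and 9530003J23Rik overlapped Pate4. Lyz2 stood above Tgm4 and Azgp1 in OEx replicates 1 and 2 and below both in OEx replicate 3. A ratio of 2 genes in 1 mouse does not depend on any scaling between mice. Defb50 was 0.0484, 0.0478 and 0.0248 times Pbsn in Ctrl mice and 3.08, 2.79 and 1.32 times Pbsn in OEx mice. Msmb was 0.0438, 0.0429 and 0.0270 times Azgp1 in Ctrl mice and 4.74, 4.41 and 2.64 times Azgp1 in OEx mice. Both ratios separated the groups fully, with OEx replicate 3 nearest to the Ctrl mice. Together the 8 genes took 3.38% to 3.94% of recovered reads in Ctrl mice, but between 0.600% and 1.08% in OEx mice. Read counts weigh long transcripts more, and Tgm4 alone took 1.71% to 2.75% of reads in Ctrl mice. Of the summed FPKM, the 8 genes took 4.94% to 5.36% in Ctrl and 2.96% to 4.23% in OEx mice.

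The luminal label was checked against 8 markers of luminal epithelium, all of which were detected in every mouse. Of these, 3 were called lower and 1 higher. Krt18, a luminal keratin, fell from 869 FPKM to 311 FPKM on average (fitted log2 change -1.49, FDR by limma 1.32e-04). Cd24a and Hoxb13 were the others called lower. With each mouse scaled to the same sum of FPKM, 0 of the 8 were called lower and 3 higher, and Krt18 was at -0.58. Krt8, the partner of Krt18, had a log2 fold change of -0.43, short of the fold criterion, and of 0.47 under that scaling. As a share of recovered reads, the 8 luminal markers together made up 0.559% to 0.621% in the OEx group and 0.553% to 0.581% in the Ctrl group. Relative to Krt18 in the same mouse, Tgm4 was at 5.71 to 9.41 in Ctrl and 0.310 to 1.22 in OEx mice, and Pbsn at 15.4 to 22.8 in Ctrl and 6.48 to 12.3 in OEx mice. Defb50 was at 0.564 to 0.773 times Krt18 in Ctrl and 16.2 to 21.8 times in OEx mice, and Msmb at 0.0162 to 0.0204 and 1.28 to 1.47 times. Each of these 4 ratios kept the direction of the gene itself. Markers of basal cells moved too. All 4 of them were called lower, and their sum went from 212 to 249 FPKM in Ctrl to 6.79 to 15.9 FPKM in OEx mice, led by the basal keratins Krt15 and Krt5. The part of these markers in the values of the secretory genes was not tested.

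**Figure D2:**
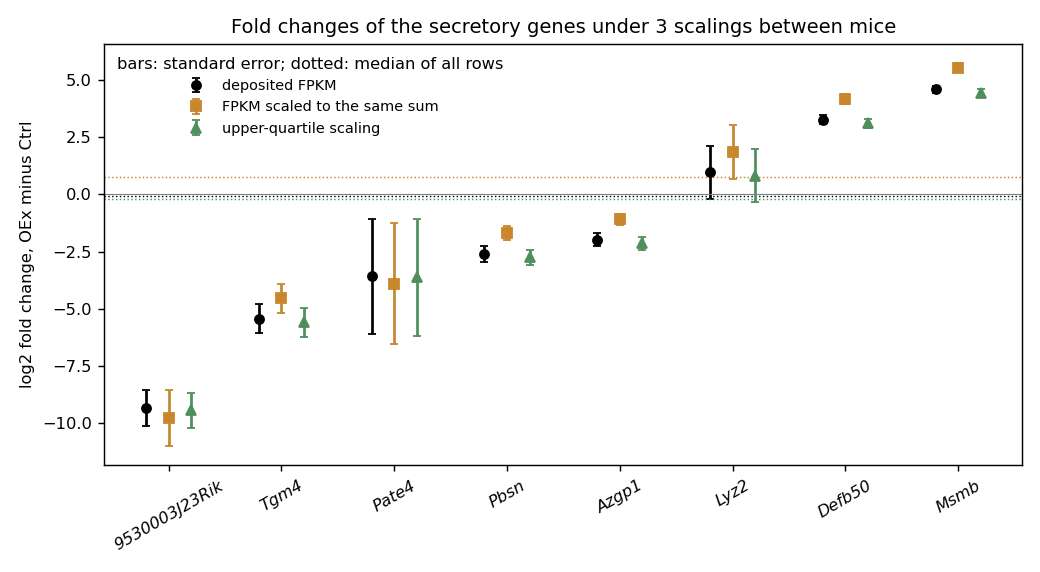
Log2 fold changes (OEx minus Ctrl) of the 8 genes with standard errors, for the deposited FPKM and 2 other scalings between mice, with the median of all rows for each as a dotted line. Tgm4 is at -5.44, -4.55 and -5.60 and Msmb at 4.60, 5.55 and 4.45 under the deposited, same-sum and upper-quartile scalings, and no gene changes sign.

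The size of each change depends on how the mice are scaled. The FPKM of a mouse summed to 253965 to 272224 in OEx and 467138 to 529972 in Ctrl mice. Scaling each mouse to the same sum moved the median log2 fold change of all rows from -0.078 to 0.75, with 5088 rows called higher and 611 lower in place of 1653 and 2021. Under that scaling Pbsn was at -1.70, Azgp1 at -1.09, Tgm4 at -4.55, Defb50 at 4.17 and Msmb at 5.55. Relative to the median of all rows, Tgm4 lay at -5.36 with the deposited values and -5.29 with equal sums, Pbsn at -2.52 and -2.44, Defb50 at 3.34 and 3.42, and Msmb at 4.68 and 4.80. The 6 genes named as lower or higher above had that call in each of the 14 alternatives. They were chosen with their levels known and the fits share the same mice, so this describes the fits and is no test.

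Promoter windows of 250 bases before the RefSeq start (GRCm38.p6) were found for 5 of the 8 genes, Tgm4, Pbsn, 9530003J23Rik, Lyz2 and Azgp1. Short motifs were searched on both strands: the 6-base core of the androgen response element, AGAACA, present in 16.1% of 32851 such windows, and the core of the RBPJ motif TGGGAA, present in 21.6%. RBPJ is the DNA-binding partner of N1ICD. Pbsn held 1 match to AGAACA, from base -95 to base -90, and Lyz2 held 1 RBPJ core, from base -54 to base -49. The windows of Tgm4, 9530003J23Rik and Azgp1 held neither, and the inverted repeat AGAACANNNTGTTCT was in none of the 5. Pbsn is printed because the Cre is driven by a probasin promoter, whose own sequence is not given and may differ from this window. The windows of 9530003J23Rik and Lyz2 are printed as neighbours of 1 family whose levels moved differently. Capitals mark the motif matches.
Pbsn (chrX:77853501-77853750, minus strand): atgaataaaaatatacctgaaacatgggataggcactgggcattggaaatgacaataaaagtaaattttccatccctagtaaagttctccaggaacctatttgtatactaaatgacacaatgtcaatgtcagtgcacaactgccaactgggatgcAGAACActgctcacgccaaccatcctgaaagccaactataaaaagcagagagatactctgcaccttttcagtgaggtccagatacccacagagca
9530003J23Rik (chr10:117238682-117238931, minus strand): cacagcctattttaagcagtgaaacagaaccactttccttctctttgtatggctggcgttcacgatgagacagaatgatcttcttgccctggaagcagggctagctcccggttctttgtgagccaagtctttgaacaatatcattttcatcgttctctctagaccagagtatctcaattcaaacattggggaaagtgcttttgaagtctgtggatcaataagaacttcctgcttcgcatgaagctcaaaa
Lyz2 (chr10:117282273-117282522, minus strand): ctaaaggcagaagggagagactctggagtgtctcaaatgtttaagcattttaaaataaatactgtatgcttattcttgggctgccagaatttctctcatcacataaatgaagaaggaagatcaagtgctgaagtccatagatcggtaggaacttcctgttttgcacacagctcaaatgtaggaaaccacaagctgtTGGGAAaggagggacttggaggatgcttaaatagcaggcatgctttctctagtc
These matches describe letters only. Positions count back from the RefSeq start, whereas the gene spans in this report are those of GENCODE. The windows of all 5 genes overlap the GENCODE spans of these genes, and the Pbsn match lies inside that of Pbsn. In a global alignment the Lyz2 window was 57.1% identical to that of 9530003J23Rik, no more than the 58.2% between 9530003J23Rik and the unrelated Pbsn window, and 80.6% identical to that of Lyz1.

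Genes next to the 8 were described within 100 kb, since several lie in clusters. Defb50 sits among other beta-defensins. Defb1, 28.4 kb away, was at 328, 339 and 217 FPKM in Ctrl and 888, 790 and 961 FPKM in OEx mice (fitted log2 change 1.60, FDR by limma 4.38e-04). Defb2, 8.63 kb away on the other side, rose from between 4 and 11 reads (Ctrl) to between 41 and 68 reads (OEx) (fitted log2 change 1.95, FDR by limma 0.00131). Defb10 was also called higher, from at most 3 reads in Ctrl to 3 to 20 reads in OEx mice, and lost the call when any of OEx replicates 1 and 2 or Ctrl replicates 1 and 3 was left out. Of the 42 other beta-defensins listed, 5 passed the filter, of which 3 were called higher and Defb42, on chromosome 14, was called lower.

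Msmb is followed 1.495 kb downstream by Ncoa4, a coactivator and ferritin receptor that was singled out after its values were seen. Ncoa4 was at 8.22, 7.69 and 7.05 FPKM in Ctrl and 55.6, 54.4 and 48.0 FPKM in OEx mice (fitted log2 change 2.63, FDR by limma 1.69e-05). It moved in the same direction as Msmb, while Timm23 and Parg beyond it had log2 fold changes of -0.69 and 0.84 and were not called. Within 100 kb, the pseudogene Gm18909, on the opposite strand inside the span of Msmb, was also called higher (fitted log2 change 1.96, FDR by limma 1.07e-04), and Galnt15, 79.8 kb away, was called lower (fitted log2 change -1.03, FDR by limma 0.00353). Msmb and Ncoa4 lie on the same strand, and the values do not tell reads that run from 1 gene into the other apart.

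**Figure D3:**
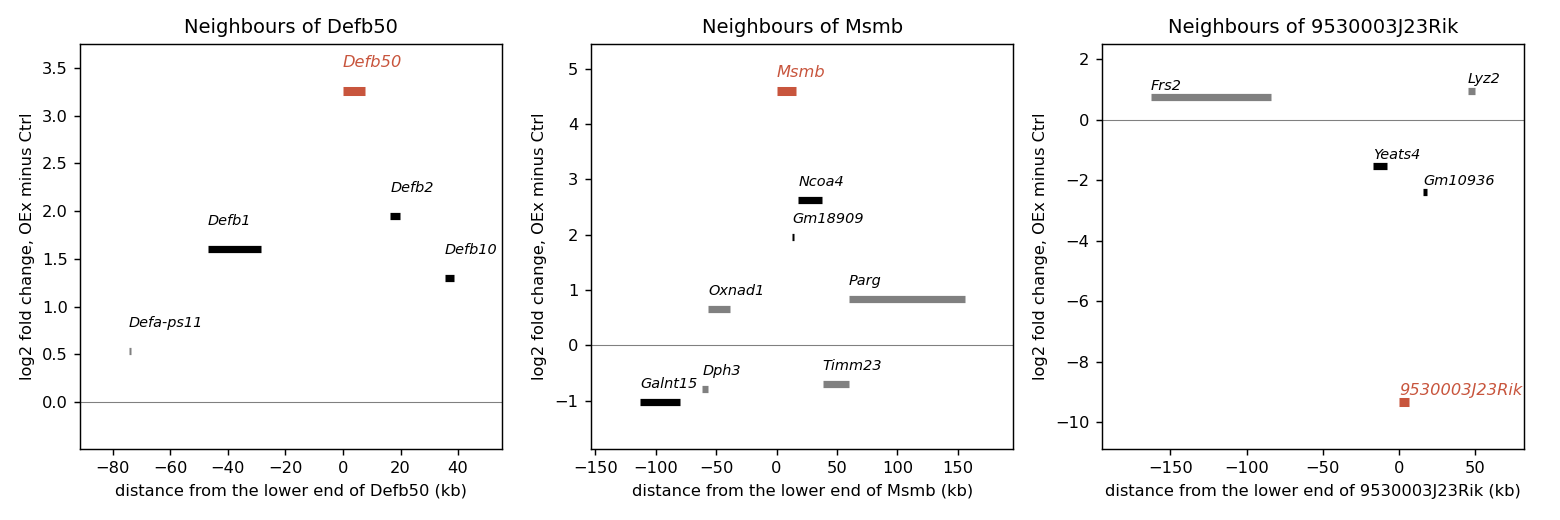
Log2 fold changes (OEx minus Ctrl) of tested genes within 100 kb of Defb50, Msmb and 9530003J23Rik (red), drawn from the lower to the higher end of each gene in kb from the lower end of the red gene, with called genes in black and others in grey. Defb1, Defb2 and Defb10 lie above 0 with Defb50, and Ncoa4 lies above 0 beside Msmb. Where 9530003J23Rik is at -9.33, Yeats4 and Gm10936 lie below 0, and Lyz2 and Frs2 lie above 0 without a call.

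9530003J23Rik, Lyz2 and Lyz1 share 1 lysozyme cluster on chromosome 10. Lyz2, the lysozyme of macrophages and neutrophils, breaks bacterial cell walls and lies from 117277331 to 117282321 on the minus strand, 38.6 kb from 9530003J23Rik. It was at 22.0, 23.8 and 54.7 FPKM in Ctrl mice and at 171, 155 and 7.79 FPKM in OEx mice. The groups overlapped, since OEx replicate 3 lay below every Ctrl mouse and the other OEx mice lay above all of them. The log2 fold change was 0.97 (standard error 1.15), and 2.37 without OEx replicate 3, the only alternative under which Lyz2 was called. Lyz1, which shares 15.4% of the 50-base stretches of Lyz2 and so may share reads with it, had 49, 50 and 2 reads in OEx and 2, 2 and 3 reads in Ctrl mice, the same split of the OEx mice. The pseudogene Gm10936, 9.32 kb from 9530003J23Rik, was at 0 in all OEx mice and at 3.49, 3.98 and 5.48 FPKM in Ctrl mice. It was called lower (fitted log2 change -2.39, FDR by limma 5.46e-05). Yeats4, 7.73 kb from 9530003J23Rik, was called lower too (fitted log2 change -1.53, FDR by limma 3.96e-05). Frs2, 83.7 kb away, had a log2 fold change of 0.75 and was not called.

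Among the OEx mice Lyz2 moved with the markers of macrophages, and likewise with the stromal collagen genes Col3a1, Col1a1 and Col1a2. The 11 macrophage markers summed to 278, 282 and 62.2 FPKM in OEx and 70.3, 72.8 and 154 FPKM in Ctrl mice. OEx replicate 3 was thus below the others in both Lyz2 and this sum. None of the 11 was at 0 in any mouse. Of the 9 tested, only Mrc1, a mannose receptor, was called higher, but 8 were called higher without OEx replicate 3 and 5 with each mouse scaled to the same sum of FPKM. C1qa, a complement subunit made by macrophages, was at 94.1, 96.7 and 21.1 FPKM in OEx and 21.6, 22.7 and 55.2 FPKM in Ctrl mice (fitted log2 change 0.92, FDR by limma 0.244). The ratio of Lyz2 to the summed markers was 0.314, 0.326 and 0.355 in Ctrl mice and 0.617, 0.550 and 0.125 in OEx mice, so it was not constant between mice. Neutrophil markers were near 0, with 7 genes, none of which passed the filter, summing to at most 2.30 FPKM in any mouse. Whether the macrophage markers account for Lyz2 was not tested.

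Pate4, also named Svs7 as a product of the seminal vesicle, encodes a small secreted protein and lies on chromosome 9 from 35607093 to 35611941 on the minus strand. It was at 0.373, 0.360 and 1135 FPKM in Ctrl mice, or 5, 5 and 18488 reads. In OEx mice it was at 0.0935, 0.122 and 0 FPKM, or 2, 3 and 0 reads. Only Ctrl replicate 3 held more than 5 reads of it. The log2 fold change was -3.59 (standard error 2.53), and -0.35 without Ctrl replicate 3. In that mouse the seminal vesicle genes Svs5, Svs2 and Svs4 stood at 10674, 3837 and 479 FPKM, against at most 2.72, 1.09 and 0.239 FPKM in any other mouse. The 9 seminal vesicle genes listed summed to 14994 FPKM in Ctrl replicate 3, 2.38 to 3.99 FPKM in the other Ctrl mice and 3.79 to 11.0 FPKM in OEx mice. None of Svs2, Svs4 and Svs5 met the call rule, and the fit without Ctrl replicate 3 called Svs5 lower. The other 3 genes of the PATE family were at most at 0.0362 FPKM.

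**Figure D4:**
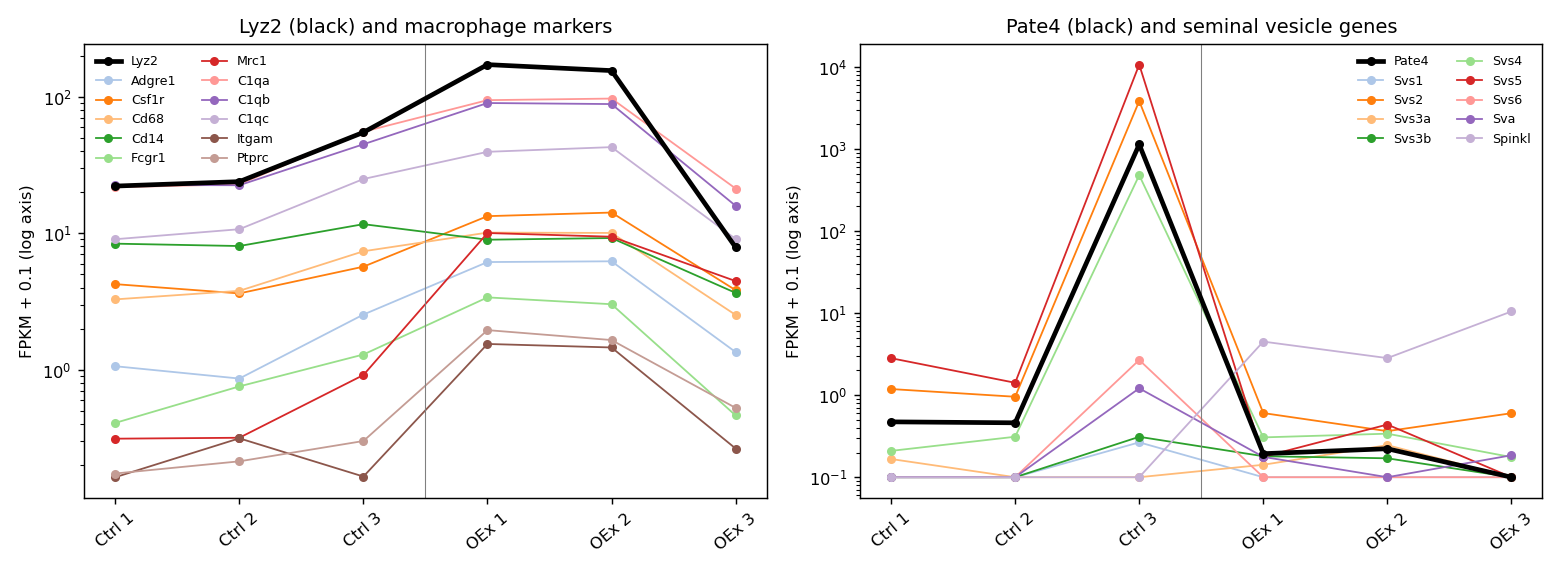
FPKM + 0.1 on log axes in each mouse for Lyz2 with 11 macrophage markers (left) and Pate4 with 9 seminal vesicle genes (right), with lines that join the points of 1 gene and imply no order of mice. Lyz2 and most macrophage markers are high in OEx 1 and 2 and low in OEx 3, and Pate4, Svs2, Svs4 and Svs5 are high in Ctrl 3 alone.

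The other secreted products of the gland were taken from a list of 13 symbols, which left out Ren1, 9530053A07Rik and C1rb because their changes were known. Of 12 rows found, 8 passed the filter, 5 were called lower and 2 higher. With equal sums of FPKM, 5 were called lower and 3 higher. Sbp, the spermine-binding protein, was at 1057, 1077 and 751 FPKM in Ctrl and 13.6, 12.4 and 58.3 FPKM in OEx mice (fitted log2 change -5.39, FDR by limma 2.52e-04). Spink1, a trypsin inhibitor, fell from 809, 802 and 547 FPKM to 12.9, 13.5 and 66.0 FPKM (fitted log2 change -4.89, FDR by limma 5.03e-04). Both had their highest OEx value in replicate 3, as Tgm4 did. Egf, Wfdc2 and Sbpl were the other genes called lower, with log2 fold changes of -3.08, -1.78 and -1.67. Clu, the secreted chaperone clusterin, was at 487, 476 and 196 FPKM in OEx and 131, 128 and 223 FPKM in Ctrl mice (fitted log2 change 1.20, FDR by limma 0.0344). Its groups overlapped, and it lost the call without any single one of OEx replicates 1 and 2 and Ctrl replicates 1 and 2. Clu also lost the call with upper-quartile scaling, without the filter, and with the replicate number as a block. Npy rose by 1.20 on the log2 scale on at most 33 reads per mouse. Apof, an apolipoprotein, had a log2 fold change of 0.85 (FDR by limma 0.00432) and missed the fold criterion. With equal sums of FPKM, Apof was called higher, at 1.76 (FDR by limma 2.66e-04).

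**Figure D5:**
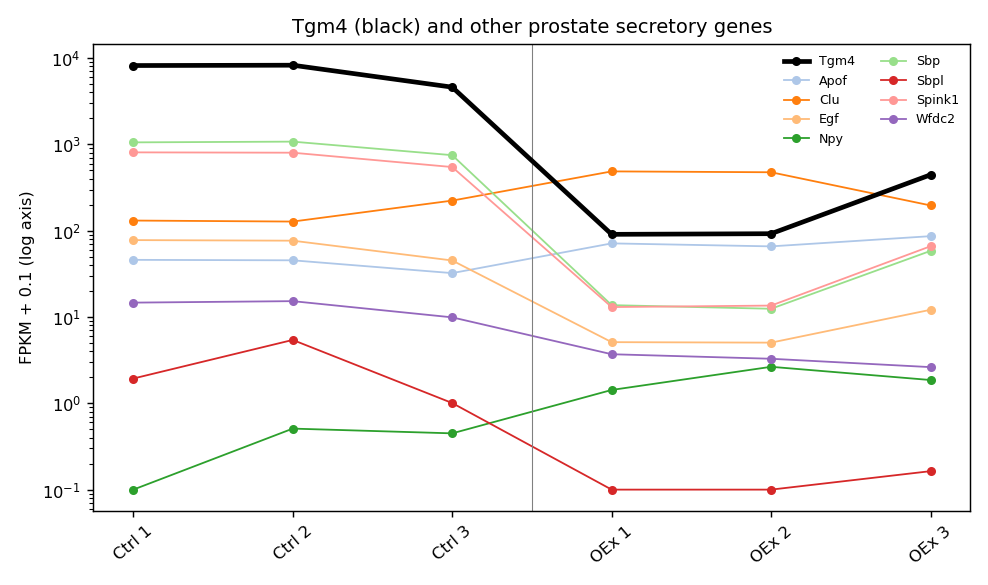
FPKM + 0.1 on a log axis in each mouse for Tgm4 (black) and 8 other prostate secretory genes that passed the filter, with lines that join the points of 1 gene and imply no order of mice. Sbp, Spink1 and Egf fall with Tgm4 from the Ctrl to the OEx mice, with a higher value in OEx 3, while Apof, Clu and Npy do not fall.

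Likeness of pattern was measured as the root mean square difference between centred log2(FPKM + 1) values over the 6 mice, among the 4537 rows averaging 10 FPKM or more. The 5 rows nearest to the median profile of the 8 genes were Smtn, Hba-a1, Egr1, Dmpk and Smim22, at differences of 0.44 to 0.47. That median mixes genes that went opposite ways, so the nearest row of each gene was added after the values were seen. For Tgm4 it was Sbp, at 0.14. The nearest row was Spink8 for Pbsn at 0.23, Camk2b for Azgp1 at 0.14, Gm37223 for 9530003J23Rik at 0.72, Upk3a for Msmb at 0.25 and Gm6069 for Defb50 at 0.20. For Lyz2 it was the collagen gene Col3a1 at 0.34, which like Lyz2 was high in OEx replicates 1 and 2 and low in OEx replicate 3, and for Pate4 it was Svs4 at 0.49.

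Genes of the same families as the 8 did not move as one. Of the other transglutaminases, Tgm2 was at 7.54 to 15.6 FPKM in OEx and 18.2 to 24.6 FPKM in Ctrl mice (fitted log2 change -0.71, FDR by limma 0.0530, and 0.14 with equal sums), and 1 of 3 tested, Tgm5, was called higher, a call lost without OEx replicate 3. Among lipocalins, the family of Pbsn, 2 of 35 listed passed the filter and both were called higher. Lcn2, a lipocalin that binds bacterial iron carriers, was at 132, 125 and 22.1 FPKM in OEx and 3.32, 3.95 and 12.3 FPKM in Ctrl mice, and Obp2a, an odorant-binding protein, was at 23.8, 23.6 and 2.53 FPKM in OEx and at most 0.215 FPKM in Ctrl mice. For both, OEx replicate 3 was the lowest OEx mouse, the reverse of Pbsn. The call of Lcn2 was lost with replicates 1 and 2 averaged, and that of Obp2a with limma-voom on recovered reads. In the lysozyme family, Lyzl4 was called higher, from 0.496 to 0.684 FPKM in Ctrl to 6.51 to 8.81 FPKM in OEx mice.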

How the data were processed

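RNA-seq of 6 mouse anterior prostates, 3 OEx and 3 Ctrl, was analysed. The authors deposited 1 table of FPKM values per mouse, by gene symbol. The submitters' processing notes name HISAT2 2.0.5, featureCounts 1.5.0-p3, StringTie 1.3.3b and CASAVA; their roles and the genome build are not given in the sources used here. Exon lengths and coordinates came from GENCODE M21 (GRCm38), with 53636 of 55076 rows matched by symbol. Reads were recovered from FPKM and exon length, and 96.9% to 97.5% of values under 1000 reads came out whole within 0.05 reads. This step and the fit were tested on simulated data.

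Groups were tested by limma 3.58.1 (R 4.3.3) on log2(FPKM + 1), group only, with an intensity trend. The 12833 rows averaging 1 FPKM or more entered; the pseudocount understates changes of low genes. A row was called when its FDR (Benjamini-Hochberg) was below 0.05 and it differed over 2-fold.

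The 8 genes and all lists (secretory, seminal vesicle, luminal, basal, macrophage, neutrophil, adipocyte, stroma, families) were chosen with earlier results of these data known. Named are the 8, up to 4 tested genes of highest mean FPKM per list, Notch1 and the 5 rows of most similar profile; others were chosen after their values were seen. Alternatives covered scaling, pseudocount, filter, replicate block, limma-voom and leaving out each mouse. The limma-voom fit used the library sizes that the FPKM imply, so it is no separate check of scaling. Tables and plots used Python 3.11.15, pandas 2.3.3 and matplotlib 3.10.9. Some genes of the luminal list are not reported here.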

Additional observations from a re-analysis of the deposited data

How the results depend on the processing

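The 4 lower and 2 higher calls among the 8 genes were kept in all 14 alternatives, and 0 log2 fold changes of called genes changed sign. As the 8 genes were chosen with this contrast in view, that is a description only. Scaling each mouse to the same sum gave 5699 called rows in place of 3674 and a median of the 8 genes of -1.40 in place of -2.30; this follows from the unequal sums. It also left 13 marker genes called but turned their split to 8 higher and 5 lower. A mean of at least 5 FPKM gave 2245 called rows, 0 seminal vesicle genes by limma in place of 1 (Spinkl, which that filter leaves untested) and 4 family genes in place of 8, with fewer rows tested. Leaving out 1 mouse at a time gave 11 to 22 called marker genes (13 with all mice, 2 higher and 11 lower; 22 without OEx replicate 3, 12 higher and 10 lower), 1 to 2 seminal vesicle genes (2 without Ctrl replicate 3) and medians of the 8 genes from -2.67 to -1.14 (-1.14 without Ctrl replicate 3). With the replicate number as a block, 3597 rows were called, with 4 of the 8 genes lower. The called rows held 6 other secretory genes, 12 marker genes and 8 family genes. Same-numbered mice deviated from their group means with correlations of -0.31 to -0.19. These deviations are mostly those of replicate 3 in both groups, so they cannot decide whether the numbers pair mice. Averaging replicates 1 and 2 of each group, chosen after the data were seen, called 3603 rows and the same 6 of the 8 genes, with a log2 fold change of 0.06 for Lyz2. For 9530003J23Rik, limma-voom on recovered reads gave -13.68 and a pseudocount of 0.1 gave -11.60. Depth limits Pate4 outside Ctrl replicate 3, Sbpl, Npy, Defb10, Defb2, Obp2a, Tgm5 and Spinkl, each on at most 5 reads in some mice. The call of Svs5 without Ctrl replicate 3 has the same limit, with 1, 5 and 0 reads in OEx mice.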

Other observations

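Spinkl, listed among the seminal vesicle genes, did not follow the others of that list. It had 52, 37 and 112 reads in OEx mice and 0 reads in every Ctrl mouse, including Ctrl replicate 3, with a log2 fold change of 2.61 (limma FDR 0.00107). Of the stromal markers, Acta2 and Myh11, contractile proteins of smooth muscle, fell by 1.84 and 1.17 on the log2 scale, and Acta2 was highest in Ctrl replicate 3 at 1166 FPKM; neither was called with equal sums of FPKM, and Myh11 was not called without Ctrl replicate 3. Of 10 stromal markers tested, 3 were called lower and 0 higher by limma; with equal sums 0 were called in either direction, without OEx replicate 3 the counts were 2 lower and 3 higher, and without Ctrl replicate 3 they were 1 lower and 0 higher. Col1a1 was at 75.4, 83.7 and 6.04 FPKM in OEx and 11.4, 11.5 and 18.9 FPKM in Ctrl mice, the same split of the OEx mice as for Lyz2. Of the adipocyte markers, 2 were tested and Fabp4 was called lower, with at most 4.47 FPKM in any mouse.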
